A study of Homo sapiens with 4 samples.

Results

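A set of 4 interferon genes and 6 genes of nucleic acid sensing were followed in A549 and HCC827 cells, and they were chosen by name, as the ligands, sensors, adaptors, kinase and transcription factor of the route that leads to interferon. The members were IFNB1, IFNL1, IFNL2, IFNL3, TLR3, CGAS, STING1, MAVS, TBK1 and IRF3, which are 10 of the 60558 gene identifiers in each library. A549 and HCC827 are established human lung adenocarcinoma (LAD) cell lines grown in DMEM. Each line was transduced either with an empty vector or with myr-AKT1, an AKT1 kinase with an added myristoylation signal that holds it at the membrane in its active state. The 4 groups were thus A549-vector and A549-myr-AKT1 on one side and HCC827-vector and HCC827-myr-AKT1 on the other, and the controls had been transduced too. Each group is 1 library, so a difference within a line carries no replicate check, and culture, library and construct cannot be told apart.

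Cells detect foreign or misplaced nucleic acid through receptors such as TLR3, which senses double-stranded RNA in endosomes, and CGAS, which binds DNA in the cytosol and makes the messenger cGAMP. STING1 is the receptor of cGAMP, and MAVS is the adaptor of the RNA helicases RIGI and IFIH1. Both recruit the kinase TBK1, which phosphorylates IRF3, and IRF3 then enters the nucleus and switches on IFNB1 and the type III interferon genes IFNL1, IFNL2 and IFNL3. Secreted interferon acts on receptors of the same or neighbouring cells and induces interferon-stimulated genes. In lung epithelium this route is known for its part in the response to respiratory viruses.

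The deposited value of a gene is called the normalized read count here (its reads over the size factor of the library), and the reads themselves were recovered from it. Size factors were set within each line, so normalized read counts compare libraries of 1 line, and levels across lines are given in TPM (transcripts per 1000000, a level per exon length). Recovered reads totalled between 16322183 and 33530317 per library, and the limit that a count of 0 allows was taken as 3 reads. AKT1 itself had a normalized read count of 4243 in A549-vector and 6297 in A549-myr-AKT1, and of 2175 in HCC827-vector and 4805 in HCC827-myr-AKT1, so it was higher in the library labelled myr-AKT1 in both lines. Of 9 lung adenocarcinoma epithelial markers, 7 had reads in both A549 libraries and 9 in both HCC827 libraries, with SFTPB at 0 in both A549 libraries and NKX2-1 at 0 in A549-vector. Their summed normalized read count was 194140 in A549-vector and 168649 in A549-myr-AKT1, and 167714 and 90451 in the HCC827 pair. In A549 the counting interval of the log2 fold change lay above 0 for 4 of 7 (median 0.23, KRT19 2.65). It lay below 0 for 2, KRT8 (-0.36) and KRT18 (-0.38), which hold most of the A549 sum. In HCC827 it lay below 0 for 8 of 9 (median -0.84, KRT8 -1.81, KRT18 -1.75). The summed normalized read count of 7 haematopoietic markers was 40.2 in A549-vector and 893 in A549-myr-AKT1, and 36.6 and 115 in the HCC827 pair, with CD14 the largest and with CD3E and CLEC4C at 0 in all 4 libraries. For 4 endothelial markers the sums were 13.1 and 137 in A549 and 76.3 and 138 in HCC827, with CLDN5 at 0 throughout, and for 5 fibroblast markers they were 142 and 1171 in A549 and 49.3 and 184 in HCC827, with COL1A2 at 0 throughout. Not every marker rose with these sums. In A549 the counting interval lay above 0 for 4 of 4 haematopoietic, 2 of 2 endothelial and 2 of 3 fibroblast markers with reads in both libraries. In HCC827 it lay above 0 for 2 of 3, 1 of 3 and 1 of 3, and below 0 for 0. CD14 (85.6) and COL1A1 (179) held most of the haematopoietic and fibroblast sums in HCC827-myr-AKT1. The part of these markers in the results was not tested.

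The promoters of the interferon genes are shown because the transcription factors at the end of the route act on them. Each line gives the 200 bases before the RefSeq start (GRCh38.p14), 5' to 3' on the gene's own strand, and capitals mark a match on either strand to AANNGAAA, the half-site that interferon regulatory factors bind, or to GGGA and TTCC with 2 free bases between them, a form of the NF-κB site. The windows are chr9:21077943-21078142 on the minus strand for IFNB1, chr19:39296207-39296406 on the plus strand for IFNL1 and chr19:39268196-39268395 on the plus strand for IFNL2.
IFNB1: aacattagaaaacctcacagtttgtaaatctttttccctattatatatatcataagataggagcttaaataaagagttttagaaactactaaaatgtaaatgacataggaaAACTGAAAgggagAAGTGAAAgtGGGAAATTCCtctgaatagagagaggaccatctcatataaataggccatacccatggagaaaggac
IFNL1: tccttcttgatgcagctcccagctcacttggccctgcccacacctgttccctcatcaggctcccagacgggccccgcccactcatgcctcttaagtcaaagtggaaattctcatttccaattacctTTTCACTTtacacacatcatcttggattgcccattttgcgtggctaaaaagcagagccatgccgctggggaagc
IFNL2: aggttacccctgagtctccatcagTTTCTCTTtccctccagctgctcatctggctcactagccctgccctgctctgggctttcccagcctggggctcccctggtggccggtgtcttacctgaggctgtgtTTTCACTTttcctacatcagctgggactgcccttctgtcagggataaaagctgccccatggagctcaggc
The IFNB1 window held 2 half-sites, at bases -89 to -82 and -76 to -69 before the start, followed by the NF-κB letters at -66 to -57. The IFNL1 window held 1 half-site, at -74 to -67. The window of IFNL3, at chr19:39245251-39245450 on the minus strand, was identical to that of IFNL2 in all 200 bases, and both held half-sites at -176 to -169 and -70 to -63. The first of these overlaps a match to GAAA and GAAA with 2 free bases between them, the interferon-stimulated response element (ISRE), at -176 to -167. Among 35116 promoter windows of the same length, 16.1% held a half-site, 3.05% held at least 2, 2.40% held the ISRE letters and 1.13% the NF-κB letters. None of these letters was found in the windows of TLR3, MAVS and TBK1, and the promoters of CGAS, STING1 and IRF3 were not analysed here. The RefSeq start of TLR3 is 245 bases after the start of the gene model given below. Its window thus lies inside that model, and the bases before the model were not searched.

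The interferon genes were at or near 0 reads in all libraries. IFNB1, the single-exon gene of interferon beta (ENSG00000171855, chr9:21077104-21077942, hg38), had 0 reads in A549-vector, 1 in A549-myr-AKT1, 0 in HCC827-vector and 6 in HCC827-myr-AKT1. Its highest value was thus in HCC827-myr-AKT1, at a normalized read count of 7.55 and 1.71 TPM. Against the 3-read limit of HCC827-vector this was 3.17-fold higher, and the lower 95% counting limit of the ratio was 1.86-fold. Counting intervals are Clopper-Pearson intervals on the reads, and counting error is all they cover.

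IFNL1, which encodes interferon lambda 1 (ENSG00000182393, chr19:39296407-39298673), had 7 reads in A549-myr-AKT1 and 0 in each of the other 3 libraries. In A549-myr-AKT1 this was a normalized read count of 8.02 and 1.38 TPM, 3.06-fold above the 3-read limit of A549-vector, with a lower counting limit of 1.89-fold. IFNL2 (ENSG00000183709, chr19:39268396-39270188) had 1 read and IFNL3 (ENSG00000197110, chr19:39243455-39245250) had 2 reads, all in A549-myr-AKT1. Both were at 0 in the other 3 libraries, and no fold is given where both libraries hold 3 reads or fewer. IFNL2 and IFNL3 are near copies, since 37.8% of the 50-base stretches of IFNL2 transcripts also occur in IFNL3. Reads could thus be split between them or left out, and how such reads were counted is not given in the sources used here. No stretch of IFNB1 or IFNL1 was shared with another gene.

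Summed over the 4 interferon genes, A549-myr-AKT1 held 11 reads, HCC827-myr-AKT1 held 6 and both vector libraries held 0. The single gene that passed 3 reads was IFNL1 in A549 and IFNB1 in HCC827, and neither gene passed 3 reads in the other line. Genes with 0 reads in the vector library and more than 3 in the myr-AKT1 library were 2.15% of 33574 in A549 and 1.45% of 34678 in HCC827. The reverse, which no member showed, held for 1.92% of 33464 genes in A549 and 2.26% of 35372 in HCC827. A count of 0 allowed up to 0.395 TPM for IFNB1 and 0.427 TPM for IFNL1 in A549-vector, and up to 0.516 and 0.558 TPM in HCC827-vector. A level below these limits could leave 0 reads at this depth, and in HCC827-myr-AKT1, the shallowest library, the limit for IFNL1 was 0.924 TPM. In RNA from whole cultures, more cells with a transcript and more transcript per cell cannot be told apart.

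**Figure D1:**
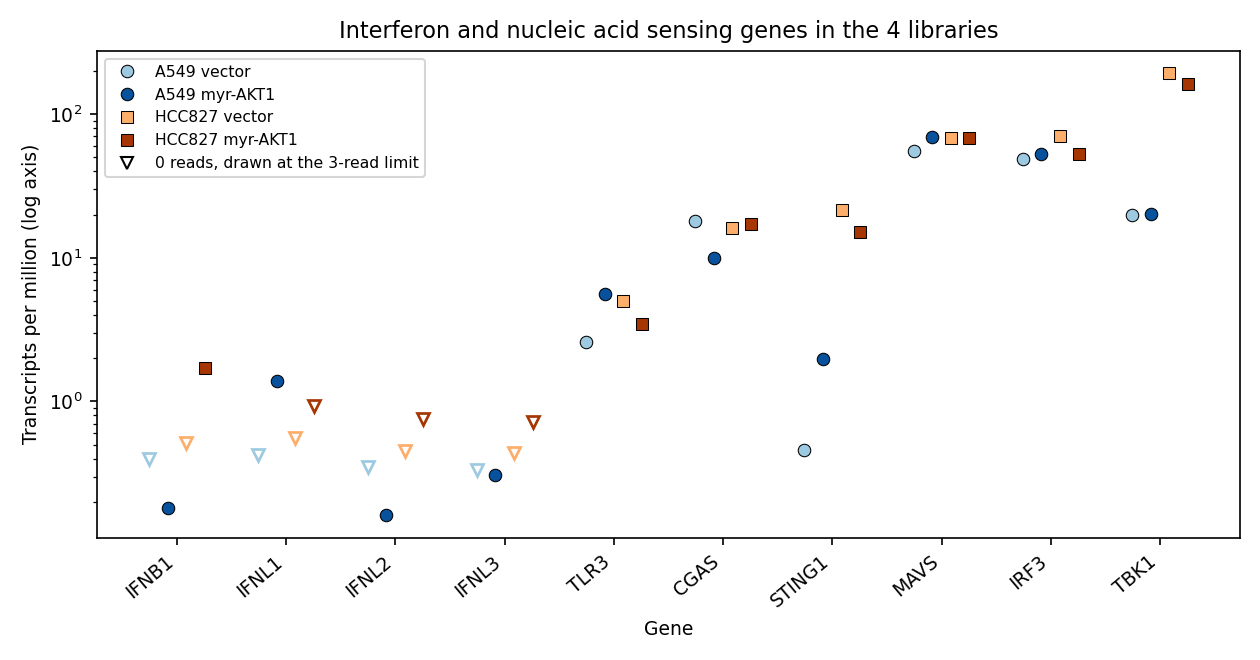
Level of each of the 10 genes in each of the 4 libraries, in TPM on a log axis, with 1 point per library. Open triangles stand for 0 reads and are drawn at the 3-read limit of that library. The 4 interferon genes lie at or below 1.71, whereas MAVS and IRF3 lie between 48.9 and 70.6 in every library and TBK1 reaches 194 in HCC827-vector.

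The sensing genes spanned a wide range of levels per length, and their order differed between the lines. In A549-vector the order by TPM was MAVS at 55.0, IRF3 at 48.9, TBK1 at 19.8, CGAS at 18.0, TLR3 at 2.61 and STING1 at 0.460. In HCC827-vector it was TBK1 at 194, IRF3 at 70.6, MAVS at 68.2, STING1 at 21.4, CGAS at 16.0 and TLR3 at 5.04. The spread over cultures of neighbours in this order is unknown. All 4 interferon genes ranked below these 6 in each library, as the plot of levels by library shows.

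TLR3, the endosomal receptor of double-stranded RNA (ENSG00000164342, chr4:186068911-186088073), had normalized read counts of 155 in A549-vector, 315 in A549-myr-AKT1, 208 in HCC827-vector and 136 in HCC827-myr-AKT1, from 177, 275, 262 and 108 reads. It was thus higher in the myr-AKT1 library of A549 and lower in that of HCC827. The log2 fold change, myr-AKT1 over vector, was 1.03 in A549 (95% counting interval 0.75 to 1.31) and -0.62 in HCC827 (-0.95 to -0.29).

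CGAS, the cytosolic DNA sensor (ENSG00000164430, chr6:73413515-73452297), had normalized read counts of 593 in A549-vector, 310 in A549-myr-AKT1, 369 in HCC827-vector and 379 in HCC827-myr-AKT1. The log2 fold change was -0.93 in A549 (-1.14 to -0.73), and in HCC827 it was 0.039, with an interval that spanned 0 (-0.18 to 0.25). Of the 6 sensing genes CGAS had the lowest log2 fold change in A549 and the highest in HCC827.

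STING1, the cGAMP receptor on the endoplasmic reticulum (ENSG00000184584, chr5:139475533-139482935), was the member with the widest differences. Its normalized read counts were 17.5 in A549-vector, 71.0 in A549-myr-AKT1, 565 in HCC827-vector and 381 in HCC827-myr-AKT1. In TPM the levels were 0.460, 1.98, 21.4 and 15.1 in the same order, so that both HCC827 libraries lay above both A549 libraries, and the construct went with a higher value in A549 and a lower one in HCC827. The log2 fold change was 2.02 in A549 (1.28 to 2.83), a 4.07-fold difference that rests on 20 and 62 reads, and -0.57 in HCC827 (-0.77 to -0.37), which rests on 711 and 303 reads.

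MAVS, the mitochondrial adaptor of the RNA helicases (ENSG00000088888, chr20:3846799-3876123), had normalized read counts of 5122 in A549-vector, 6123 in A549-myr-AKT1, 4425 in HCC827-vector and 4229 in HCC827-myr-AKT1. In TPM the levels were 55.0, 69.6, 68.2 and 68.2, and A549-vector had the lowest. The log2 fold change was 0.26 in A549 (0.20 to 0.31). In HCC827 it was -0.065 (-0.13 to -0.0033), and scaling by total reads turned it to 0.014.

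TBK1, the kinase that STING1 and MAVS share (ENSG00000183735, chr12:64452090-64502114), had normalized read counts of 2309 in A549-vector, 2211 in A549-myr-AKT1, 15691 in HCC827-vector and 12572 in HCC827-myr-AKT1. In TPM the levels were 19.8, 20.1, 194 and 162, so that the 2 HCC827 libraries lay above the 2 A549 libraries. The log2 fold change was -0.062 in A549 (-0.15 to 0.023) and -0.32 in HCC827 (-0.35 to -0.28).

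IRF3, the transcription factor that TBK1 activates (ENSG00000126456, chr19:49659569-49665875), had normalized read counts of 1467 in A549-vector, 1506 in A549-myr-AKT1, 1475 in HCC827-vector and 1056 in HCC827-myr-AKT1. On the TPM scale, which allows a comparison across lines, the levels were 48.9, 53.1, 70.6 and 52.8 in the same order, with HCC827-vector the highest. The log2 fold change was 0.038 in A549 (-0.068 to 0.14) and -0.48 in HCC827 (-0.60 to -0.36). BCL2L12 overlaps 19.3% of the exonic bases of IRF3 on the opposite strand, and the strand setting of the counting is not given in the sources used here.

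**Figure D2:**
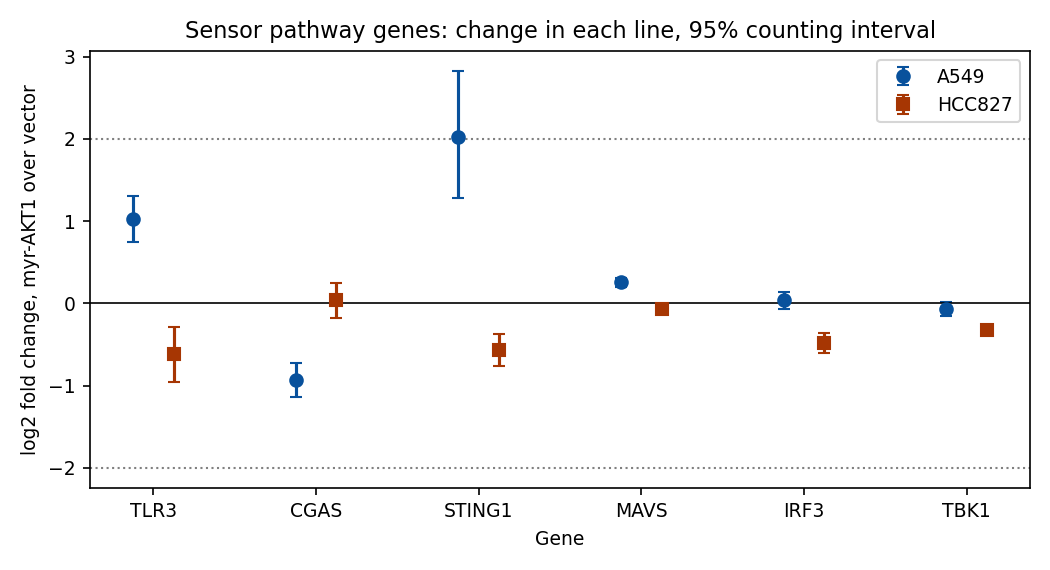
Log2 fold change of 6 sensing genes, myr-AKT1 over vector, in A549 (circles) and HCC827 (squares), with 95% counting intervals as bars and dotted lines at 2 and -2. STING1 and TLR3 lie above 0 in A549 and below 0 in HCC827, and CGAS lies below 0 in A549.

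Counted over the members, the pairs of libraries differed in direction. In A549, 1 of the 6 members with reads in both libraries, STING1, passed a log2 fold change of 2, beside 6.89% of 24302 genes, and 0 fell below -2, beside 3.62%. The counting interval lay above 0 for TLR3, STING1 and MAVS, beside 27.2% of all genes, and below 0 for CGAS, beside 29%. The median of the 6 was 0.15, against 0 over all genes. The interval spanned 0 for 10640 of the 24302 genes, which include genes with few reads. Few reads widen a counting interval, and the shares of all genes are not matched to the members or lists for reads. This limit holds for every share of counting intervals given below.

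In HCC827, 0 of the 6 members passed 2, beside 6.13% of 22736 genes, and 0 passed -2, beside 3.87%. The counting interval lay below 0 for 5 of 6, namely TLR3, STING1, MAVS, IRF3 and TBK1, beside 29.2% of all genes, and above 0 for 0 of 6, beside 27.1%. The median was -0.40, against 0 over all genes. Several of these differences were small, with MAVS at -0.065 and TBK1 at -0.32. The interval spanned 0 for 9928 of the 22736 genes, and these shares are not matched for reads either, so 5 of 6 is no measure of enrichment.

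In a fit over all 4 libraries with the cell line as a block, limma called 0 of the 6 members, beside 1.29% of 19314 genes called higher and 1.73% called lower. The log2 fold changes ran from -0.45 for CGAS (SE 0.372) to 0.70 for STING1 (SE 0.646), and the Benjamini-Hochberg adjusted p values ran from 0.590 for CGAS to 0.883 for MAVS. At an unadjusted p under 0.05 the count was also 0, and edgeR's quasi-likelihood test and DESeq2 on the recovered reads called 0 of 6 too. The interferon genes were not in this fit, since none passed its filter on low counts. In a fit of every gene with a read in some library, limma called 0 of these 4, with the lowest adjusted p at 0.316 (IFNB1, unadjusted p = 0.0457). The fit has 1 residual degree of freedom and averages the lines, which for TLR3 and STING1 lay on opposite sides of 0.

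The log2 fold changes of TLR3, STING1 and MAVS had opposite signs in A549 and HCC827 with both counting intervals clear of 0, in the sense of higher in A549 and lower in HCC827, and such a pattern was seen for 5.85% of 20298 genes with reads in all 4 libraries. The reverse was seen for 0 of 6 members and 5.75% of genes. For MAVS the sign in HCC827 depended on the scaling. The difference between the lines, A549 minus HCC827 on the log2 scale, was 2.59 for STING1 (approximate 95% counting interval 1.84 to 3.34) and 1.64 for TLR3 (1.22 to 2.07). For CGAS the difference was -0.97 (-1.26 to -0.68), and for IRF3, MAVS and TBK1 it was 0.52, 0.32 and 0.26. With 1 library per group there is no test of these differences over cultures.

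Among these 6 genes, the vector libraries of the lines differed most in STING1 and TBK1. STING1 had 20 reads in A549-vector and 711 in HCC827-vector, a 43.1-fold higher level in HCC827 (log2 5.43, counting interval 4.79 to 6.15), and TBK1 had 2644 and 19744 reads, a 9.06-fold higher level (log2 3.18, 3.12 to 3.24). These 2 of 6 members passed a log2 ratio of 2, beside 9.17% of 22680 genes, and 0 of 6 passed -2, also beside 9.17%. TLR3 was higher in HCC827-vector by a log2 ratio of 0.84 (0.56 to 1.13), IRF3 by 0.42 and MAVS by 0.20, and CGAS had a ratio of -0.27 (-0.44 to -0.10). The reads were scaled by size factors over all 4 libraries for this comparison, and cell line and library cannot be told apart.

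Across the 3 differences used above (the change in A549, the change in HCC827 and the ratio of the vector libraries), TLDC2, CRYBG1 and ITGB6 were nearest to STING1 among 15735 genes, at Euclidean distances of 0.172, 0.410 and 0.434 on the log2 scale over 4 libraries. CRYBG1 had log2 fold changes of 1.80 in A549 and -0.56 in HCC827, and ITGB6, an integrin subunit of epithelial cells, had 2.38 and -0.33. TLDC2 had only 6 reads in A549-vector.

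Of 18 further interferon genes, 16 had 0 reads in both A549 libraries and 16 in both HCC827 libraries, and 15 of all 22 interferon genes, IFNA1 among them, were at 0 in all 4 libraries. IFNE, an epithelial type I interferon, had 300 reads in A549-vector, 642 in A549-myr-AKT1, 77 in HCC827-vector and 23 in HCC827-myr-AKT1. Its log2 fold change was 1.49 in A549 (1.29 to 1.69) and -1.08 in HCC827 (-1.82 to -0.39), so that it was higher with the construct in A549 and lower in HCC827, as TLR3 and STING1 were. IFNA2 had 2 reads in A549-vector and 1 in A549-myr-AKT1, and IFNW1 had 2 reads in HCC827-myr-AKT1.

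The receptor genes that would receive these ligands had reads in all 4 libraries. IFNLR1, the specific chain of the interferon lambda receptor, had 155 and 97 reads in A549-vector and A549-myr-AKT1 and 250 and 75 in the HCC827 pair. Its log2 fold change was -0.29 in A549, with an interval that spanned 0 (-0.67 to 0.09), and -1.07 in HCC827 (-1.47 to -0.70). IL10RB, the chain shared with interleukin-10 receptors, had 0.34 and 0.75. Of the chains for type I interferon, IFNAR1 had 0.16 in A549 and -0.15 in HCC827, and IFNAR2 had 0.51 and 0.53. Over the 12 receptors and signal transducers, the counting interval lay above 0 for 7 and below 0 for 3 in A549, and for 8 and 3 in HCC827, with medians of 0.18 and 0.46, beside 27.2% and 29% of all genes in A549 and 27.1% and 29.2% in HCC827. The limma fit called 1 of 12, STAT2, a signal transducer of the type I and type III interferon receptors, which rose by 1.22 (SE 0.249, adjusted p = 0.0468), and DESeq2 called it while edgeR did not.

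Among 18 other genes of RNA sensing, 16 had reads in both libraries of each line. In A549 the counting interval lay above 0 for 4 and below 0 for 5 (median 0.01), and in HCC827 above 0 for 11 and below 0 for 3 (median 0.85), beside the same shares of all genes, so the A549 counts were close to the background. RIGI, the helicase that signals through MAVS, had 476 reads in A549-vector and 988 in A549-myr-AKT1, and 1158 and 606 in the HCC827 pair, with log2 fold changes of 1.44 and -0.27. The gene ENSG00000288684 overlaps 43.2% of the exonic bases of RIGI on the same strand. How reads in this overlap were counted is not given in the sources used here. IFIH1, the helicase of long double-stranded RNA, had 86 and 263 reads in the A549 pair and 798 and 906 in the HCC827 pair, where its log2 fold change was 0.85. TICAM1, the adaptor of TLR3, had -0.62 in A549 and 0.057 in HCC827, where the interval spanned 0. The fit called 1 of 16, OAS2, an interferon-induced synthetase of oligoadenylate, which rose by 4.36 (SE 0.517, limma adjusted p = 0.00959) and was called by edgeR too.

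Of 13 other genes of DNA sensing, 8 had reads in both A549 libraries and 9 in both HCC827 libraries. IFI16, a nuclear DNA sensor that acts with STING1, had 47 reads in A549-vector and 169 in A549-myr-AKT1, and 2859 and 1567 in the HCC827 pair, with log2 fold changes of 2.24 (1.76 to 2.74) and -0.20 (-0.29 to -0.11). The 3 subunits of RNase H2, which removes ribonucleotides from DNA, were lower in the myr-AKT1 library of both lines, with RNASEH2A at -2.45 and -1.21, RNASEH2B at -0.80 and -0.63 and RNASEH2C at -0.92 and -0.83. THSD8 overlaps 53.3% of the exonic bases of RNASEH2A on the same strand. None of the 9 tested passed limma's adjusted threshold, and the lowest adjusted p was 0.102. At an unadjusted limma p under 0.05 there were 4, namely the 3 RNase H2 subunits and TRIM56. Unlike the subunits, TRIM56 was higher with the construct in both lines, at 0.36 and 0.86, as was ENPP1, at 0.50 and 0.73. ZBP1, a sensor of Z-form nucleic acid, had 0 reads in HCC827-vector and 13 in HCC827-myr-AKT1, and 0 and 3 reads in A549. In HCC827 this was 6.86-fold above the 3-read limit, with a lower counting limit of 4.83-fold. In the fit of every gene with a read in some library, limma called ZBP1 higher and RNASEH2A lower, out of 11 tested. The exonuclease gene TREX1 was at 0 in all 4 libraries, and 100% of its exonic bases are overlapped by ATRIP on the same strand. How reads in such an overlap were counted is not given in the sources used here.

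In the group of 14 kinases, scaffolds and interferon regulatory factors around TBK1 and IRF3, the medians were 0.12 in A549 and -0.049 in HCC827. IKBKE, the kinase related to TBK1, had log2 fold changes of -0.053 in A549, where the interval spanned 0, and -0.37 in HCC827, and the scaffold TANK had 0.15 and -0.66. IRF7, the factor that amplifies type I interferon, had 67 and 237 reads in A549-vector and A549-myr-AKT1 and 373 and 242 in the HCC827 pair. It was higher with the construct in A549, at 2.21 (1.82 to 2.63), and its value in HCC827, 0.039, had an interval that spanned 0. IRF1 had 1.38 in A549 and -0.079 in HCC827, where the interval spanned 0, and IRF5 had 1.02 and 1.51. The fit called 0 of 14, with 1 at an unadjusted p under 0.05 (IRF5, limma adjusted p = 0.0969).

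Of 22 interferon-stimulated genes, 21 had reads in both libraries of each line. In A549, 16 passed a log2 fold change of 2, beside 6.89% of all genes, and the median was 3.45. In HCC827, 8 passed 2, beside 6.13%, and the median was 1.07. The counting interval lay above 0 for 19 of 21 in each line, beside 27.2% and 27.1% of all genes. With the gene at 0 in the vector library at its bound the medians were 3.44 and 1.31. The limma fit called 9 of 21 higher and 0 lower, with IFITM1, a membrane protein that hinders virus entry, at 4.44 (SE 0.528, adjusted p = 0.00959), while edgeR called 5 with TMM and 2 with DESeq2 size factors, and DESeq2 called 11 of 20. With a pseudocount of 0.1 or without the cell-line block limma called 0 of 21. IFITM1 had 11 reads in A549-vector and 368 in A549-myr-AKT1, and 157 and 1182 in the HCC827 pair.

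**Figure D3:**
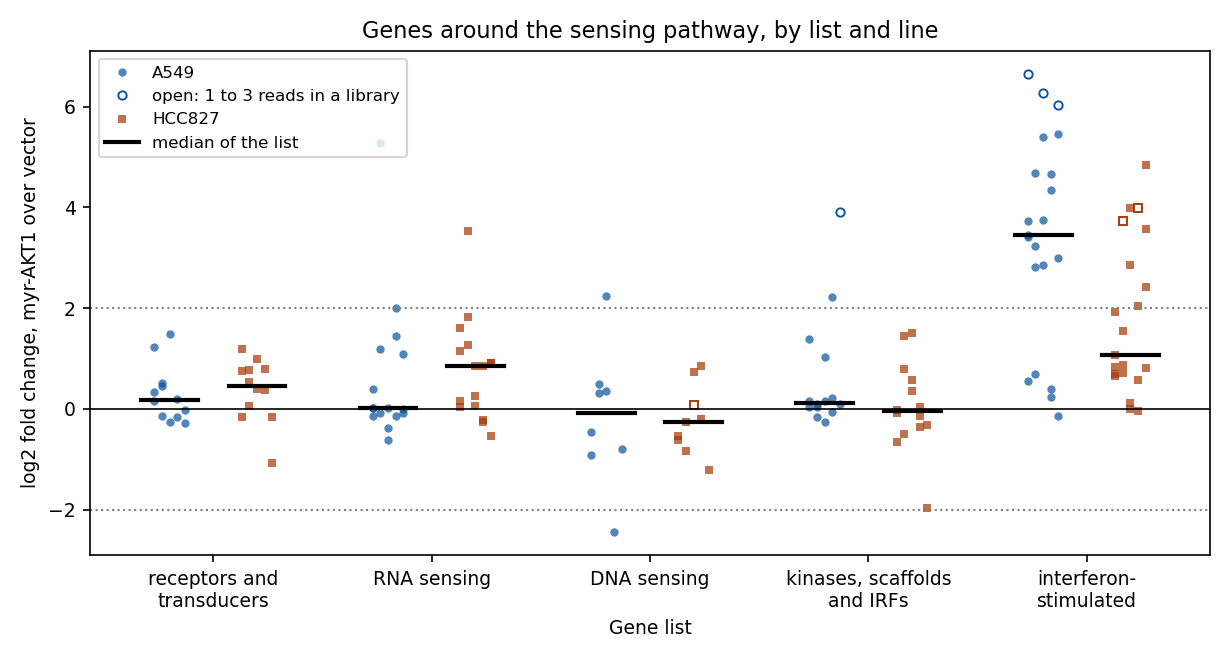
Log2 fold change of each gene with reads in both libraries of a line, myr-AKT1 over vector, for 5 lists, in A549 (circles) and HCC827 (squares), with bars at the list medians and open symbols for genes with 1 to 3 reads in a library. The interferon-stimulated genes have medians of 3.45 and 1.07, whereas the other lists have medians between -0.26 and 0.85.

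**Figure D4:**
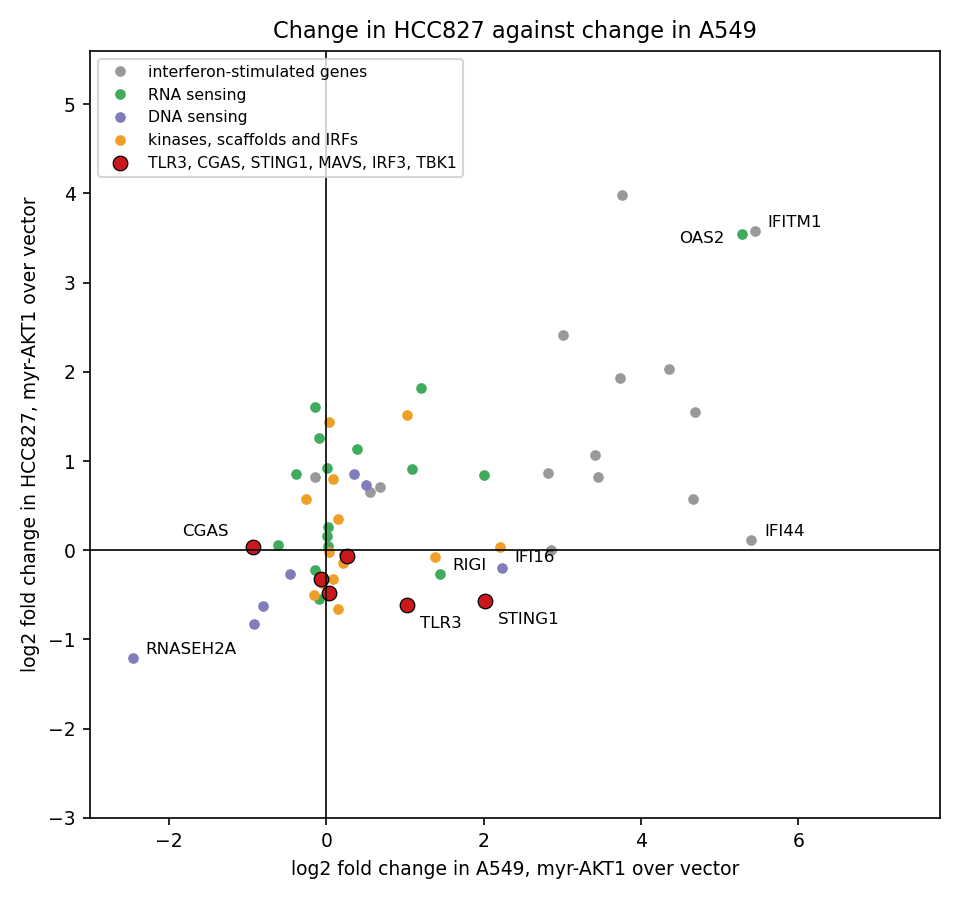
Log2 fold change in HCC827 against that in A549, myr-AKT1 over vector, with 1 point per gene that has more than 3 reads in each of the 4 libraries and colours for the lists. TLR3, STING1, RIGI and IFI16 lie in the lower right, higher in A549 and lower in HCC827, and OAS2 and IFITM1 lie in the upper right.

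IFNB1 lies on the short arm of chromosome 9 among MTAP, CDKN2A, KLHL9, FOCAD and HACD4, whose reads are given beside its own. CDKN2A, a cell cycle inhibitor, had 0 reads in both A549 libraries, and 4344 and 2055 in HCC827-vector and HCC827-myr-AKT1. MTAP, an enzyme of methionine salvage, had 250 and 158 reads in the A549 pair and 6582 and 2049 in the HCC827 pair. KLHL9, an adaptor of a ubiquitin ligase, had 2237 and 1568 reads in A549 and 1160 and 685 in HCC827, with log2 fold changes of -0.12 and -0.097. FOCAD had 3650 and 3207 reads in A549 and 2529 and 1068 in HCC827, with 0.20 and -0.58. HACD4 had 246 and 218 reads in the A549 pair. In HCC827-vector it had 0 reads and in HCC827-myr-AKT1 7, a pattern of 0 and more than 3 reads that 1.45% of 34678 genes showed. The fit called 0 of the 7 neighbours listed, and 0 had an unadjusted p under 0.05, in limma.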

How the data were processed

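RNA of vector-control and myr-AKT1-transduced A549 and HCC827 cells was sequenced as 4 strand-specific libraries, grouped by their labels. The paper's methods describe poly(A) selection, and the labels describe rRNA depletion. The authors mapped reads with Bowtie2 and counted them per Ensembl gene with HTSeq on hg38, at versions that the methods state (the annotation release is not given in the sources used here). The methods name RPKM, but the deposited signal is a count divided by 1 size factor per library, set within each line. Division by the worth of 1 read gave whole reads (tolerance 0.001) for 100% of genes with reads in both myr-AKT1 libraries and for all but 1 gene in each vector library.

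Genes were matched to GENCODE 44, which left 297 identifiers unmatched. TPM was computed from recovered reads and merged exon lengths. Log2 fold changes came from normalized read counts without a pseudocount, for genes that had reads in both libraries of a line. Intervals are 95% Clopper-Pearson intervals, and a fold against 0 reads was set against 3 reads. With 1 to 3 reads the ratio or the reads are given. The fit over both lines was limma on log2(value + 1), with trend, cell-line block and filterByExpr. Its p-values rest on samples not stated to be replicate cultures. Called means an adjusted p under 0.05. Alternatives were other scalings, pseudocounts, filters and thresholds, no block, edgeR and DESeq2. The fits were also run on simulated counts in which a changed gene had the same change in both lines. Opposite changes in the lines were not covered by that simulation.

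The members and gene lists were chosen with earlier results of these data known. Named genes were the 10 members, a set of fixed names and the 3 highest and 3 lowest genes of each list by mean log2 fold change with at least 20 reads per pair, of which the text gives a part. Fits were run with limma 3.58.1, DESeq2 1.42.0 and edgeR 4.0.16 under R 4.3.3, and the rest with pandas 2.3.3 and scipy 1.17.1 under Python 3.11.15.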

Additional observations from a re-analysis of the deposited data

Results flagged for a closer look

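Of 43 named genes with at least 5 reads in each library, 9 had log2 fold changes, myr-AKT1 over vector, of opposite sign in A549 and HCC827 with both counting intervals clear of 0, and each was higher in A549 and lower in HCC827. Over all 20298 genes with reads in the 4 libraries the share with this pattern was 5.85%, and 5.75% had the reverse. These 20298 genes needed only 1 read in each library, so their shares are not matched to the named genes for reads. The named genes were in part picked as the extremes of their lists. With 1 library per group this difference was not tested over cultures. Of the members, TLR3 had 1.03 and -0.62, STING1 had 2.02 and -0.57, and MAVS had 0.26 and -0.065. Of the other genes, RIGI had 1.44 and -0.27, IFI16 had 2.24 and -0.20, IFNAR1 had 0.16 and -0.15, IFNE had 1.49 and -1.08, TANK had 0.15 and -0.66, and FOCAD had 0.20 and -0.58. The signs of 8 of the 9 were kept under the 3 other scalings, and MAVS in HCC827 was the exception.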

How the results depend on the processing

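Depth limits the interferon genes, which rest on 1 to 7 reads, and STING1 in A549, which rests on 20 and 62 reads. Leaving out a library was not possible, since each group is 1 library. The libraries are paired by cell line alone, which is the block of the fit. Of the members, MAVS in HCC827 changed sign, to 0.014 with total reads, and so did TBK1 in A549, whose interval spans 0, to 0.040 with size factors over all 4 libraries. STING1 in A549 ran from 1.96 to 2.13 over the alternatives. Size factors over all 4 libraries shifted the median of all genes in A549 by 0.10.

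With a mean normalized read count of at least 50, the genes past 2 and -2 were 525 and 327 in A549 and 352 and 243 in HCC827, and 0 of the 5 A549 members left passed 2, since STING1 was filtered out. With a threshold of 1 they were 4433 and 3009 in A549 and 3975 and 3206 in HCC827, and 2 members passed in A549, STING1 and TLR3. The limma fit called 250 genes higher and 335 lower, and 196 and 228 with edgeR and TMM. The counts were 42 and 57 with edgeR and DESeq2 size factors, 621 and 518 with DESeq2, 1101 and 894 with every gene that had a read in some library, 0 and 0 with a pseudocount of 0.1 (1558 and 1626 at an unadjusted p under 0.05), and 0 and 0 without the cell-line block (201 and 430). No member was called in the fit or under any of these 6 alternatives, and the adjusted p of the 6 sensing genes was at least 0.590 in all of them. The interferon genes entered the fit of every gene with a read, with adjusted p from 0.316 to 0.882. The causes were not tested.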

Other observations

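The neighbours of TBK1 were looked at after its high level in HCC827 had been seen. Of 10 protein-coding genes within 1000000 bases of TBK1 with enough reads, TBC1D30 had 519 reads in A549-vector and 5660 in HCC827-vector, a log2 ratio of 3.73. RASSF3 had a ratio of 0.91 and XPOT of -0.48. The median of the 10 neighbours was -0.31, against 0.01 over all genes with reads in both vector libraries.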
